A study of Homo sapiens with 6 samples.

Results

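The respiratory chain of the inner mitochondrial membrane passes electrons from NADH and succinate to oxygen and pumps protons, and ATP synthase uses the proton gradient to make ATP. Complex I oxidises NADH, complex II oxidises succinate, complex III hands electrons to cytochrome c, complex IV reduces oxygen, and complex V is ATP synthase. Most subunits are encoded in the nucleus, and nuclear respiratory factor 1 (NRF1) and the ETS family factor GABP are known regulators of many of these genes. Members were chosen by gene symbol: CYC1, CYCS, NDUFAB1 and the NDUFA, NDUFB, NDUFC, NDUFS, NDUFV, SDH, UQCR, COX4 to COX8 and ATP5 families, in the platform annotation. The rule found 84 of the 18417 genes measured, of which 81 are protein-coding and are described as subunit genes: 34 of complex I, 3 of complex II, 8 of complex III, CYCS for cytochrome c, 17 of complex IV and 18 of complex V. The other 3 are the pseudogenes UQCRBP1 and ATP5F1EP2 and the non-coding RNA NDUFV1-DT. A further 6 symbols of the rule, among them NDUFC2, NDUFS5 and ATP5F1E, were found only on probe sets shared with other genes and were left out, and the mitochondrially encoded subunits were not analysed here.

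The 2 groups were A549 stable cells labelled H2AX knockdown (called P1, 3 arrays) and control A549 stable cells (called C, 3 arrays). A549 is a human lung adenocarcinoma line. All 6 samples were starved of serum overnight and then treated with VP-16 for 48 h. VP-16 is etoposide, a topoisomerase II poison that breaks DNA. The labels do not say how many stable lines or clones stand behind a group, nor what the control cells carry. The groups therefore differ in their cell line as well as in the label, and these cannot be told apart. There was no sample without the drug, so every comparison is between groups under VP-16. The design text speaks of independent experiments, so p-values measure the spread between experiments, and 3 arrays a group limit the precision.

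Values are log2 signals, 1 probe set per gene, and every difference is knockdown-labelled minus control from a limma fit across all genes. H2AX read 5.28, 5.17 and 5.49 in the knockdown-labelled arrays, against 5.11, 5.27 and 5.26 in the controls (difference 0.10, exact permutation test, 2-sided, p = 0.4, with 0.1 the smallest p possible). The targeted gene thus did not read lower, and directions below are those of the arrays labelled knockdown. Of 9 measured A549 epithelial markers 7 lay in the brightest quintile of genes (KRT8 at a control mean of 9.69), while EPCAM was dim at 2.42. The summed linear signal of the epithelial markers was 2014 to 2660 in the knockdown-labelled arrays, against 2271 to 2901 in the controls. The summed linear signal of 9 fibroblast markers was 107 to 128 in the knockdown-labelled arrays, against 89.7 to 112 in the controls. For 9 blood and immune markers it was 375 to 460, against 490 to 648, and for 10 striated muscle markers 166 to 181, against 168 to 185. CD68, at a control mean of 8.93, made up most of the blood list, and PTPRC stood at 2.07. The part of these lists in the results was not tested. Bright genes as a class read lower in the knockdown-labelled arrays: the median difference was -0.25 over the brightest quintile of all genes and 0.15 over the dimmest. Against the control mean, the brightest quintile had medians of -0.45, -0.15 and -0.13 in knockdown-labelled replicates 1, 2 and 3, against 0.14, -0.15 and 0.01 in control replicates 1, 2 and 3.

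Nuclear genes of the respiratory chain and ATP synthase mostly read lower in the knockdown-labelled arrays, and none passed the threshold of an adjusted p of 0.05. The difference was below 0 for 63 of the 81 subunit genes, against 51.5% of all genes, and its median was -0.23, against -0.01 over all genes. Past the adjusted threshold there were 0 members lower and 0 higher, where 0.0271% of all genes were lower and 0.00543% higher (limma, Benjamini-Hochberg adjustment over all genes). At an unadjusted p under 0.05, 26 subunit genes were lower and 0 higher, against a background of 8.38% lower and 3.78% higher. Most of the 26, 23, were among the 49 members in the brightest quintile (46.9%), where the share of all genes lower at that p was 22.9%. The groups did not overlap for 24 subunit genes in the lower direction and for 2 in the higher, where 9.82% and 7.17% of all genes did so. In the brightest quintile 22 of the 49 members were apart in the lower direction (44.9%), against 23.2% of all genes there. Less RNA of a gene per cell and fewer cells that express it cannot be told apart in bulk RNA.

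**Figure D1:**
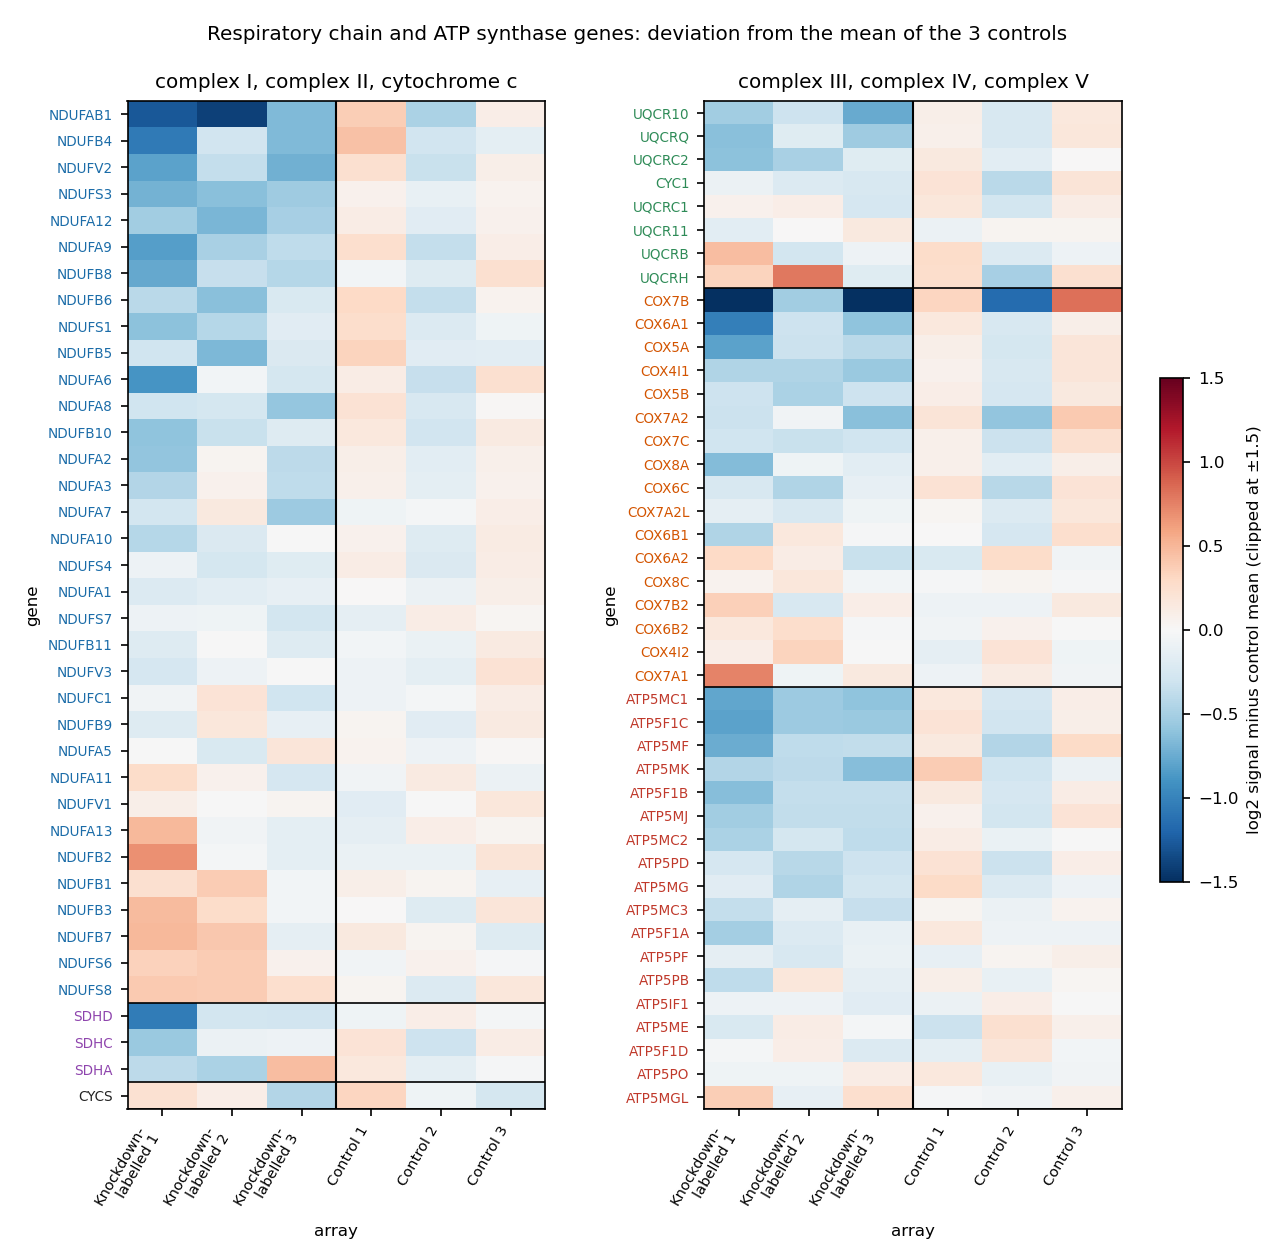
Log2 signal minus the mean of the 3 controls for the 81 subunit genes (rows, ordered by difference within each complex) in the 3 knockdown-labelled arrays (left of the line in each panel) and the 3 control arrays (right). Most rows are blue on the left, and control replicate 2 is paler or blue beside the other controls.

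These members are bright, and differences ran with brightness. Of the 81, 49 lay in the brightest quintile of genes; 47 of them were below 0, with a median of -0.37, and the median of all genes in that quintile was -0.25 with 85.3% below 0. The 32 members in the other quintiles had 16 below 0 and a median of 0.01, against 0.04 for all genes there. Quantile normalization between arrays brought the median of the 81 members to -0.08, with 52 below 0, against -0.03 for all genes. Cyclic loess, which removes trends with brightness between arrays, gave -0.07 with 49 below 0, against -0.02. In the brightest quintile the members' median was then -0.19 and -0.16, against -0.07 and -0.03 for all genes of that quintile.

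**Figure D2:**
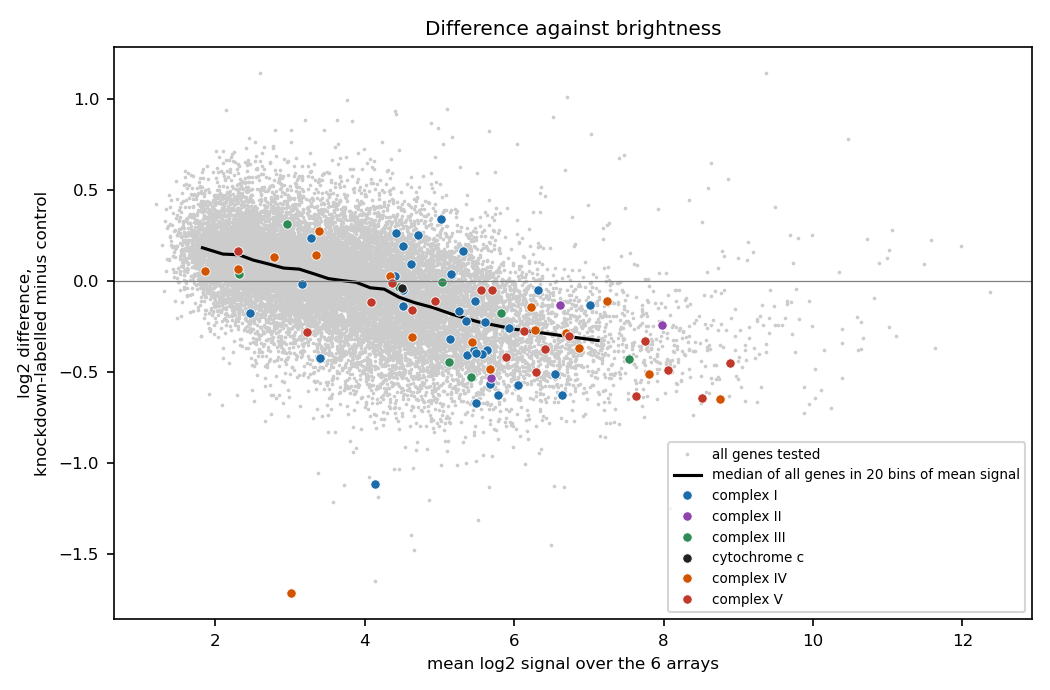
Log2 difference, knockdown-labelled minus control (vertical), against the mean log2 signal over the 6 arrays (horizontal), for all genes tested (grey) and subunit genes (coloured by complex), with the median of all genes along brightness as a black line. The line slopes downward, bright subunit genes lie on both sides of it with more below, and COX7B and NDUFAB1 lie far below it.

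Single arrays differed within their groups. The median deviation of the 81 subunit genes from the control mean was -0.30, -0.21 and -0.22 in knockdown-labelled replicates 1, 2 and 3, against 0.08, -0.17 and 0.08 in control replicates 1, 2 and 3. All 3 knockdown-labelled arrays lay below all 3 controls, but control replicate 2 came close to them. Of the 81 genes 58 had their lowest control value in control replicate 2, and 34 had their lowest value of all 6 arrays in knockdown-labelled replicate 1. The count of 26 was 14 without knockdown-labelled replicate 1, 12 without control replicate 1 and 12 without control replicate 3. The share of all genes lower at an unadjusted p under 0.05 was not counted with arrays left out. After cyclic loess the medians were 0.01, -0.10 and -0.15 in the knockdown-labelled arrays, against 0.00, -0.08 and 0.08 in the controls, and the groups overlapped.

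Promoter sequence was read from RefSeq (GRCh38.p14) to show what members share outside the array values. The table held a promoter, from 250 bases before to 50 after the start, for 68 of the 81 subunit genes. The NRF1 core GCATGCGC, on either strand, was found in 13 of these 68 (19.1%), against 4.19% of the promoters of all genes tested, 5.88% of those in the brightest quintile and 3.27% of all promoters in the table. With GC directly before the core the motif was in 4 of the 68, those of NDUFB4, NDUFA8, SDHD and ATP5F1C, against 1.80% for all genes tested; these matches are also matches of the core. The ETS core CCGGAAG was in 19 of the 68 (27.9%), against 14.6% for all genes tested, 21.0% for the brightest quintile and 10.7% for all promoters. The median difference was -0.37 for the 13 members with the NRF1 core and -0.22 for the 55 without it, and -0.30 for the 19 with the ETS core and -0.22 for the 49 without it. These sets were not matched for brightness, with which differences ran, and the contrast was not tested. A match describes letters and was not tested as a binding site.

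The following 5 stretches lie within the bases before the start of CYCS and of the member with the smallest p in complexes I, III, IV and V that carries either core there and may be printed. They are given 5′ to 3′ on the strand of the gene, and capitals mark the NRF1 core or the ETS core on either strand. NDUFS3 (chr11:47578932-47579037, + strand) has the ETS core at 102 and 83 bases before the start. UQCRQ (chr5:132866548-132866634, + strand) has it at 54. CYCS (chr7:25125382-25125469, - strand) has the NRF1 core at 169. COX6A1 (chr12:120437863-120438112, + strand) has the NRF1 core at 218 and 174 and the ETS core at 16. ATP5F1C (chr10:7788115-7788176, + strand) has the NRF1 core on both strands, at 22 and 20, as 1 palindrome.
NDUFS3: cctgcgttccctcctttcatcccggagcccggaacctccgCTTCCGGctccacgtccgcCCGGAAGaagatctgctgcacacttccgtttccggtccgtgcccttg
UQCRQ: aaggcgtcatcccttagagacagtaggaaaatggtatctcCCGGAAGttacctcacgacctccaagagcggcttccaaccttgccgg
CYCS: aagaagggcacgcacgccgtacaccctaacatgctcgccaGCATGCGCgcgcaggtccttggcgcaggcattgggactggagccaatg
COX6A1: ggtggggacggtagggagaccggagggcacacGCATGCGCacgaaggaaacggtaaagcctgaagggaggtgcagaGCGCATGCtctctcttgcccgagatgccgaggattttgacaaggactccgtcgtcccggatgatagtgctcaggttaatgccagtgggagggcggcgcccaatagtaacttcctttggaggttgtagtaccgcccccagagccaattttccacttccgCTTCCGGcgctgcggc
ATP5F1C: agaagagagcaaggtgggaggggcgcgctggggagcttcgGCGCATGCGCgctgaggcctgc

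Complex I, NADH dehydrogenase, had 25 of 34 genes below 0 and a median of -0.20, and an unadjusted p under 0.05 was reached by 10 genes, all lower (29.4%). Of these, 8 were among its 21 genes in the brightest quintile (38.1%), where the share over all genes was 22.9%. NDUFAB1, the mitochondrial acyl carrier protein and an accessory subunit, had the smallest p of the 81 genes (probe set 8000323, Entrez gene 4706). It read 3.43, 3.29 and 4.03 in the knockdown-labelled arrays, against 5.07, 4.22 and 4.802 in the controls. The highest knockdown-labelled value lay under the lowest control value. Its difference was -1.11 ± 0.24 (SE), or 53.8% less signal (limma adjusted p = 0.192). It was of middling brightness (59.3 on a percentile scale of all genes), and quantile normalization and cyclic loess moved it little, to -1.07 and -1.09. With any 1 array left out it stayed between -1.35 and -0.93.

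The core subunits of complex I, which carry the redox centres and the quinone site, lay on both sides of 0. NDUFS3 read 6.24, 6.33 and 6.42 in the knockdown-labelled arrays, against 7.02, 6.84 and 7.002 in the controls. Its difference of -0.62 ± 0.16 (SE; limma adjusted p = 0.229) was larger than the SD of either group, 0.09 and 0.10. NDUFV2, an iron-sulfur subunit of the NADH-oxidising arm, had 5.29, 5.73 and 5.37, against 6.34, 5.76 and 6.18. These groups were apart by a narrow gap, between knockdown-labelled replicate 2 and control replicate 2. NDUFS8, an iron-sulfur subunit near the quinone site, went the other way, with 5.25, 5.23 and 5.10 in the knockdown-labelled arrays, against 4.89, 4.65 and 5.02 in the controls. All its knockdown-labelled values lay above the controls, with a difference of 0.34 (95% interval -0.01 to 0.69, limma adjusted p = 0.422), and 0.48 and 0.49 after quantile normalization and cyclic loess. NDUFS1 was at -0.40, NDUFS7 at -0.14 and NDUFV1 at 0.04, so 4 of the 6 core genes measured were below 0.

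Of the 28 accessory genes of complex I 21 were below 0. NDUFA12, of the NADH-oxidising arm, read 5.81, 5.65 and 5.83 in the knockdown-labelled arrays, against 6.44, 6.16 and 6.398 in the controls, without overlap (-0.57 ± 0.16, SE; limma adjusted p = 0.277). NDUFB4, of the membrane arm, had a difference of -0.67, but knockdown-labelled replicate 2 (5.54) met control replicate 2 (5.54), and its 2 probe sets hold identical values. The accessory genes NDUFA9 (-0.56), NDUFB8 (-0.51), NDUFB5 (-0.40), NDUFA8 (-0.38) and NDUFA1 (-0.17) also had groups apart. NDUFS6, a subunit of the arm that faces the matrix, was the other gene with groups apart in the higher direction: 4.63, 4.67 and 4.355 in the knockdown-labelled arrays, against 4.24, 4.352 and 4.27 in the controls (0.26, limma adjusted p = 0.517). Knockdown-labelled replicate 3 cleared the top control only narrowly. The genes NDUFB7 (0.25), NDUFB3 (0.24) and NDUFB1 (0.19) were above 0 with overlapping groups.

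**Figure D3:**
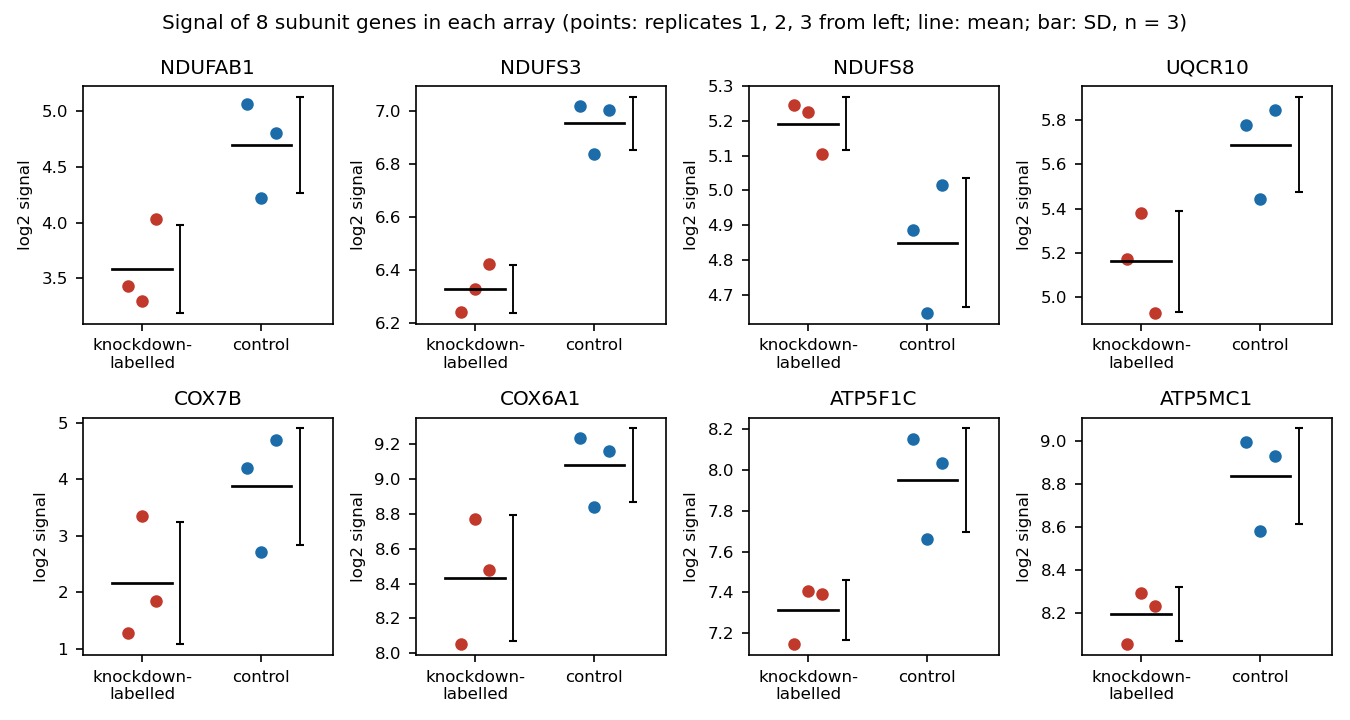
Log2 signal of 8 subunit genes in each array (points), with the mean (line) and SD (bar, n = 3), knockdown-labelled arrays left and control arrays right; each panel has its own vertical scale, which does not start at 0. The groups are apart for all shown but COX7B, and NDUFS8 alone is higher on the left.

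Complex II, succinate dehydrogenase, is also an enzyme of the citrate cycle, and 3 of its genes were measured. SDHD, a membrane anchor, read 4.92, 5.69 and 5.68 in the knockdown-labelled arrays, against 5.89, 6.06 and 5.93 in the controls. Knockdown-labelled replicate 1 was the low one, and the difference was -0.53 ± 0.21 (SE; limma adjusted p = 0.357). Its other probe set gave -0.43, and the difference was -0.28 without knockdown-labelled replicate 1. SDHC, the other anchor, had -0.24 on its brighter probe set and 0.34 on the dimmer one, so the probe sets disagree. SDHA, the flavoprotein that binds succinate, had 6.29, 6.21 and 7.15, against 6.84, 6.54 and 6.67. Its knockdown-labelled replicate 3 was the highest of the 6 arrays and the groups overlapped (-0.13, limma adjusted p = 0.834). The median of the complex, -0.24, was 0.01 after cyclic loess, -0.08 without knockdown-labelled replicate 1, -0.43 without knockdown-labelled replicate 3, -0.14 without control replicate 1 and -0.40 without control replicate 2.

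Complex III, the cytochrome bc1 complex, had a median of -0.10, with 6 of 8 genes below 0. After quantile normalization and cyclic loess the median was -0.04 in both, with 4 of 8 below 0. The small subunit gene UQCR10 read 5.17, 5.38 and 4.93 in the knockdown-labelled arrays, against 5.78, 5.44 and 5.85 in the controls, with no overlap (-0.53 ± 0.18, SE; limma adjusted p = 0.314). UQCRC2, a core protein of the matrix side, read 7.13, 7.26 and 7.57, against 7.90, 7.59 and 7.76, and its groups were apart by a gap smaller than either SD. UQCRQ, another small subunit, had a difference of -0.45, and its knockdown-labelled replicate 2 (5.17) lay above control replicate 2 (5.11). CYC1, the cytochrome c1 subunit that passes electrons on, had 5.83, 5.71 and 5.67, against 6.12, 5.51 and 6.11. Control replicate 2 was the lowest of its 6 values, and the difference was -0.18, or 0.05 and 0.06 after quantile normalization and cyclic loess. UQCRH, the hinge protein that helps cytochrome c dock, was dim and scattered, with 3.15, 3.605 and 2.63, against 3.08, 2.31 and 3.05 (0.32, limma adjusted p = 0.63). A brighter probe set that UQCRH shares with UQCRHL and GNA13, outside the fit, went the other way, with 4.20, 4.74 and 4.85 in the knockdown-labelled arrays, against 5.39, 4.94 and 5.34 in the controls and no overlap. The remaining genes UQCRB, UQCRC1 and UQCR11 were between -0.03 and 0.04. The median was -0.27 without control replicate 2, -0.20 without knockdown-labelled replicate 1, -0.06 without control replicate 1 and -0.04 without control replicate 3.

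Cytochrome c, the mobile carrier that also triggers apoptosome assembly when released, showed no difference beyond its spread. CYCS read 4.75, 4.61 and 4.07 in the knockdown-labelled arrays, against 4.84, 4.45 and 4.25 in the controls. The groups overlapped, with a difference of -0.04 and a 95% interval of -0.49 to 0.41 (limma adjusted p = 0.952).

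In complex IV, cytochrome c oxidase, the common and the tissue-restricted isoforms had opposite signs and also differed in brightness. The 11 genes that most tissues use were all below 0, with a median of -0.34, and 9 of them lay in the brightest quintile, where 85.3% of all genes were below 0, while the 6 isoform genes known from muscle, lung or testis (COX4I2, COX6A2, COX6B2, COX7A1, COX7B2 and COX8C) were all above 0, with a median of 0.10. Control means of these 6 ran from 1.83 to 4.33 and none had groups apart. COX6A2, at 4.33, was of middling brightness (64.6 on the percentile scale), and the other 5 lay in the dimmest 2 quintiles, where 72.8% of all genes were above 0. COX7A1, the heart and muscle form, had the highest difference of the complex (0.27, limma adjusted p = 0.595), and its knockdown-labelled replicate 1 stood out at 3.99, against 3.18 and 3.39 in replicates 2 and 3 and 3.17, 3.37 and 3.20 in the controls. The split was not complete under the other scalings: after quantile normalization 9 of the 11 were below 0 (median -0.14), as were 2 of the 6, COX7B2 and COX8C (median 0.04), and the counts after cyclic loess were also 9 and 2.

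COX6A1, the ubiquitous form of subunit 6A, was among the brightest members. It read 8.05, 8.77 and 8.48 in the knockdown-labelled arrays, against 9.24, 8.84 and 9.16 in the controls, apart by a small gap (-0.65 ± 0.20, SE; limma adjusted p = 0.289), and its other probe set gave -0.51. COX4I1, the common form of subunit 4, read 5.47, 5.47 and 5.37, against 5.98, 5.68 and 6.10, again apart (-0.48 ± 0.17, SE). COX5A (-0.51) and COX5B (-0.37), subunits on the matrix side, also had groups apart. After cyclic loess these 4 stood at -0.43, -0.26, -0.25 and -0.09. COX7B, a small membrane subunit, had the lowest difference of all 18417 genes, and also the widest spread among the members. It read 1.27, 3.35 and 1.84 in the knockdown-labelled arrays, against 4.19, 2.72 and 4.70 in the controls. Knockdown-labelled replicate 2 lay above control replicate 2, so the groups overlapped, and the difference of -1.72 ± 0.50 (SE) had a limma adjusted p of 0.279. With any 1 array left out it ran from -2.32 to -1.27.

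Complex V, ATP synthase, read lower almost throughout, with 17 of 18 genes below 0, a median of -0.29, and 7 genes, all lower, with an unadjusted p under 0.05. All 7 were among its 12 genes in the brightest quintile (58.3%), where the share over all genes was 22.9%. Its median deviation was -0.37, -0.25 and -0.30 in the knockdown-labelled arrays, against 0.13, -0.11 and 0.06 in the controls. Quantile normalization left 14 of 18 below 0 and a median of -0.10, and after cyclic loess -0.08 with 13. The rotating c ring is made from ATP5MC1, ATP5MC2 and ATP5MC3, which encode the same mature protein with different import sequences. All 3 had groups apart in the lower direction, against 9.82% of all genes. Of the 3, 2 lay in the brightest quintile, where that share was 23.2%. ATP5MC1 read 8.06, 8.30 and 8.23 in the knockdown-labelled arrays, against 8.998, 8.58 and 8.93 in the controls (-0.64 ± 0.17, SE; limma adjusted p = 0.273). ATP5MC2 was at -0.37, or -0.11 after cyclic loess. ATP5MC3, a dim gene (35.2 on the percentile scale), was at -0.28, or -0.35 after cyclic loess.

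The catalytic head of ATP synthase had 4 genes measured, all below 0. ATP5F1C, the central stalk subunit, read 7.15, 7.41 and 7.39 in the knockdown-labelled arrays, against 8.15, 7.66 and 8.03 in the controls, with no overlap (-0.63 ± 0.18, SE; limma adjusted p = 0.276). ATP5F1B, the catalytic beta subunit, read 8.48, 8.76 and 8.76, against 9.26, 8.87 and 9.23 (-0.45 ± 0.17, SE; limma adjusted p = 0.356). ATP5F1A, the alpha subunit, was at -0.28 with groups apart, and ATP5F1D, the delta subunit, at -0.05, or 0.12 and 0.16 after quantile normalization and cyclic loess. The peripheral stalk genes ATP5PB, ATP5PD, ATP5PF and ATP5PO, which hold the head still, lay between -0.33 and -0.01 with 0 of 4 apart. Among small membrane subunits, ATP5MF was at -0.50, ATP5MK at -0.49 (-0.30 without control replicate 1) and ATP5MJ at -0.42. ATP5IF1, the inhibitor that blocks ATP hydrolysis, was at -0.11. ATP5MGL, a dim relative of ATP5MG, was the member above 0 (0.17), and 0.01 after cyclic loess.

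**Figure D4:**
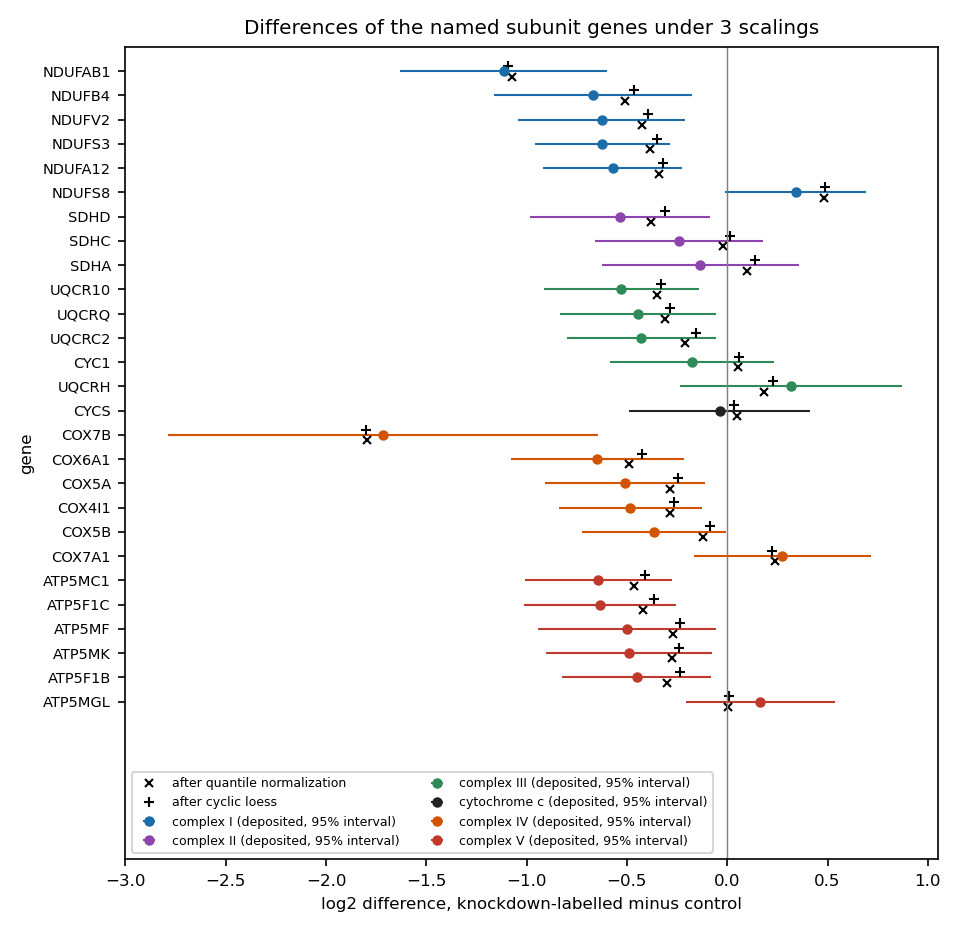
Log2 difference, knockdown-labelled minus control, of the named subunit genes with the 95% interval from limma on the deposited values (coloured points and bars), and after quantile normalization (x) and cyclic loess (+). Both scalings pull most bright genes toward 0, leave NDUFAB1 near -1.1 and COX7B near -1.8, and move NDUFS8 further above 0.

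With arrays weighted by their agreement with their group, 6 members passed the adjusted threshold, all lower, where 0.842% of all genes were called lower in that fit. They were NDUFAB1 (adjusted p = 0.0153), NDUFS3 (0.0404), COX7B (0.0429), ATP5MC1 (0.0434), NDUFA12 (0.0437) and ATP5F1C (0.0477), with differences of -1.22, -0.65, -1.95, -0.67, -0.65 and -0.66 in limma. Over all genes, 36 were called higher in that fit. NDUFS3, ATP5MC1, NDUFA12 and ATP5F1C lie in the brightest quintile, and the share of all its genes called in that fit was not counted. The weights gave control replicate 3 a weight of 5.03 and knockdown-labelled replicate 1 one of 0.41.

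By array, each of complexes I to V had all 3 knockdown-labelled medians below control replicates 1 and 3. Control replicate 2 lay at -0.17 for complex I, -0.14 for complex II and -0.24 for complex IV, lower than some knockdown-labelled arrays. For complex III it lay at -0.24, below all 3 knockdown-labelled arrays (-0.12, -0.19 and -0.21). For complex V it lay at -0.11, above all 3. The difference between complexes was not tested. The brightest-quintile genes of complexes I, III, IV and V had medians of -0.38, -0.44, -0.34 and -0.40, while their other genes had 0.03, 0.02, 0.06 and -0.11.

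**Figure D5:**
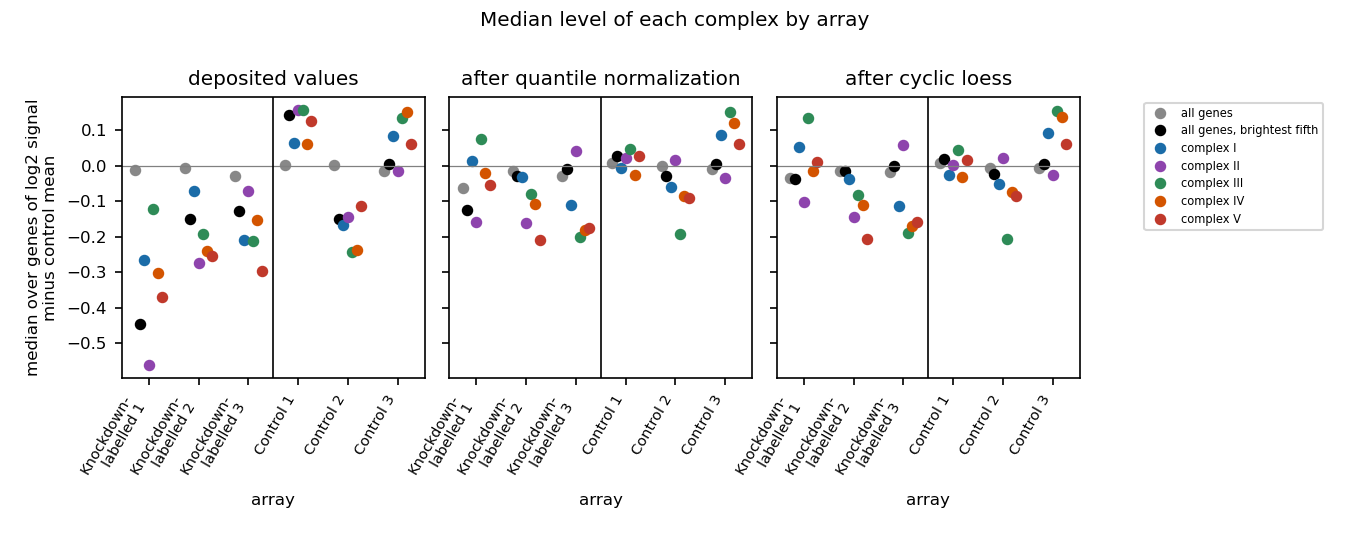
Median over genes of the log2 signal minus the control mean (vertical) for complexes I to V, for all genes and for the brightest quintile of all genes, in each array (knockdown-labelled left of the line, control right), with deposited values, after quantile normalization and after cyclic loess. The deposited medians of complex V are lower in all 3 knockdown-labelled arrays than in the controls, and after cyclic loess knockdown-labelled replicate 1 sits near 0.

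Other genes of the pathway were taken from lists of their own. Assembly factors, which build the complexes without staying in them, had 39 of 51 below 0 and a median of -0.17 (-0.17 and -0.15 under quantile normalization and cyclic loess). The unadjusted p was under 0.05 for 14 that were lower (27.5%) and 1 that was higher (1.96%), where the shares over all genes were 8.38% and 3.78%, and 0 passed the adjusted threshold in limma. Of the 51, 14 lay in the brightest quintile. Of those 14, 8 were lower at an unadjusted p under 0.05, where the share over all genes of that quintile was 22.9%. The complex I factors TMEM126B (-0.67) and TIMMDC1 (-0.64), which help build the membrane arm, had groups apart. TMEM126B read 2.55, 2.31 and 2.86 in the knockdown-labelled arrays, against 3.46, 2.92 and 3.34 in the controls. For complex II, SDHAF2, which helps attach flavin to SDHA, was at -0.66, or -0.38 without knockdown-labelled replicate 1. The complex III factors UQCC3 and BCS1L had opposite signs, at 0.70 and -0.47. UQCC3 was highest in knockdown-labelled replicate 1 (4.97, against 3.96 and 3.87 in replicates 2 and 3), and was at 0.35 without it. For complex IV, the copper chaperone SCO1 was at -0.51 and the haem enzyme COX10 at -0.68, or -0.38 without knockdown-labelled replicate 1. For complex V, TMEM242 was at -0.19. DMAC2, at -0.38, was also counted in the complex V list, though its name refers to the membrane arm of complex I.

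Genes that feed or serve the chain were counted the same way. Of 17 citrate cycle and pyruvate dehydrogenase genes 16 were below 0, and their median was -0.33 (-0.14 under quantile normalization). The unadjusted p was under 0.05 for 5, all lower (29.4%), against 8.38% of all genes. Of the 17, 12 lay in the brightest quintile. Of those 12, 4 were lower at that p, where the share over all genes of that quintile was 22.9%. IDH3A, of NAD-dependent isocitrate dehydrogenase, read 6.74, 6.87 and 7.41 in the knockdown-labelled arrays, against 7.999, 7.63 and 7.77 in the controls (-0.79, limma adjusted p = 0.229). SUCLG1, of succinyl-CoA ligase, was at -0.63. The list of carriers and channels, which also held the creatine kinase CKMT2, had 7 genes measured. All 7 were below 0 in the deposited values, with a median of -0.33. Of the 7, 4 lay in the brightest quintile, where 85.3% of all genes were below 0. After quantile normalization and cyclic loess 6 of 7 were below 0, with medians of -0.21 and -0.20. SLC25A4, an ADP/ATP carrier of the inner membrane, read 4.54, 4.58 and 4.42, against 5.57, 5.35 and 5.06, a difference of -0.81 (limma adjusted p = 0.192) that stayed at -0.70 and -0.68 after quantile normalization and cyclic loess. VDAC2, a channel of the outer membrane, was at -0.60 on its brighter probe set and at 0.30 on the dimmer one, so its probe sets disagree.

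Among regulators of respiratory genes 6 of 14 were below 0, and the median was 0.01. GABPB1, the beta subunit of GABP, read 3.35, 3.41 and 3.70 in the knockdown-labelled arrays, against 4.26, 3.86 and 4.09 in the controls (-0.58, limma adjusted p = 0.28), and stayed at -0.59 and -0.60 under both other scalings. GABPA, the other subunit of GABP, was at -0.02 (limma adjusted p = 0.964) and NRF1 at 0.04 (limma adjusted p = 0.941). TFB2M, a transcription factor of mitochondrial DNA, was at -0.32 with groups apart.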

How the data were processed

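The deposited values are log2 signals of 33297 probe sets on 6 arrays, made by the authors with RMA, per the submitters' processing notes (its version is not stated). The arrays did not share 1 distribution. The SD over all probe sets was 1.60, 1.74 and 1.71 in knockdown-labelled replicates 1, 2 and 3, against 1.86, 1.77 and 1.79 in the controls. Each knockdown-labelled array was thus narrower than each control. RMA compresses differences of dim probe sets. The log2 scale was taken from the values. Probe sets were named through the platform annotation: 19460 had 1 gene, 1754 several and 12083 none. Per gene the single-gene probe set with the highest mean was kept, with no filter on low signals. Linear models from limma 3.58.1 in R 4.3.3 (lmFit, then eBayes) set 3 arrays against 3 without covariates. The p-values are 2-sided and were adjusted by Benjamini-Hochberg across the 18417 genes. The procedure was tested on simulated data. Lists were described by counts and medians and not tested. Named were H2AX, NDUFAB1, CYC1 and CYCS, per complex the 5 members with the smallest p and the one with the highest difference, per pathway list the 2 with the smallest p, and members whose probe sets disagree; others, such as those with groups apart, were chosen after their values were seen. The members and lists were chosen with earlier results of these data known. Alternatives were the replicate block, quantile normalization, array medians subtracted, cyclic loess, a filter at the median signal, all probe sets averaged, weights per array, a variance that is robust and follows intensity, and leaving out single arrays.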

Additional observations from a re-analysis of the deposited data

How the results depend on the processing

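These were chosen after seeing the data: counting the 3 pseudogene and non-coding symbols, and counting COXFA4 and its relatives with complex IV (median -0.21). The planned count of NDUFA4 with complex I was not run, because the annotation calls it COXFA4. Of 14 alternatives, 43 subunit genes were below 0 in all in which they were measured, 10 above 0, and 28 took both signs. The replicate block, the filter and the variance setting leave each difference as in the main fit, so no sign could change there. Averaging probe sets likewise cannot change a gene with 1 probe set. Replicate numbers did not pair the arrays (correlations of deviations -0.31, -0.02 and 0.07). The replicate block gave 3 genes lower and 0 higher over all genes, against 5 and 1, and 0 members called. Quantile normalization and cyclic loess gave 0 and 0, a filter at the median signal 14 and 2, all probe sets averaged 3 and 0, array medians subtracted 0 higher, and array weights 155 and 36 with 6 members called. Leaving out 1 array gave 0 to 8 lower, 0 to 1 higher and 12 to 33 members lower at an unadjusted p under 0.05 (14 and 11 after quantile normalization and cyclic loess). The shares of all genes at that unadjusted p were not counted for these settings. Medians after quantile normalization and cyclic loess were -0.077 and -0.066 for all members, -0.069 and -0.048 for complex I, -0.022 and 0.013 for complex II, -0.093 and -0.087 for complex IV, and -0.10 and -0.083 for complex V. With 1 array left out they ran from -0.31 to -0.17, -0.26 to -0.14, -0.43 to -0.08, -0.27 to -0.040 (complex III), -0.37 to -0.14 and -0.36 to -0.22. For complex IV the median was -0.15 without knockdown-labelled replicate 1, -0.16 without control replicate 1 and -0.14 without control replicate 3. The filter gave -0.30 for complex III. Signs turned for CYC1 (0.052 and 0.058 after quantile normalization and cyclic loess), CYCS (0.050, 0.031, 0.11 with array weights, 0.16 without knockdown-labelled replicate 3 and 0.12 without control replicate 1), SDHA (0.10, 0.14 and 0.036 without knockdown-labelled replicate 2) and SDHC (0.013 after cyclic loess and 0.047 with all probe sets averaged). The cause was not tested. H2AX stayed between 0.01 and 0.28 and uncalled.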

Other observations

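Probe sets shared by several genes were kept out of the fit. The one for NDUFC2 and the readthrough NDUFC2-KCTD14 had 5.45, 5.75 and 6.13 in the knockdown-labelled arrays, against 6.49, 6.22 and 6.54 in the controls, with groups apart. The probe set that holds NDUFS5 beside RPL10 and other genes had 7.82, 7.96 and 8.20, against 8.68, 8.21 and 8.41, also apart. For ATP5F1E and SLMO2-ATP5E the values were 4.44, 4.79 and 4.27, against 4.82, 4.66 and 4.90, with overlap. COXFA4, a complex IV subunit formerly named NDUFA4, had a difference of -0.09 (95% interval -0.47 to 0.29).

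The pseudogene UQCRBP1 read 2.52, 2.91 and 2.86 in the knockdown-labelled arrays, against 2.22, 1.95 and 2.497 in the controls, and had the opposite sign to UQCR10 and UQCRQ at a dim signal (0.55, limma adjusted p = 0.314). The parent gene UQCRB was at 0.04. NDUFV1-DT was at 0.06 and ATP5F1EP2 at -0.35. The probe sets of NDUFS4 disagreed, at -0.18 and 0.33, both dim.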
